A study of Gallus gallus with 6 samples.

Results

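The genes described here are 18 autosomal genes that stood at least 3-fold higher in the control neural fold of chicken embryo 2 than in that of embryo 3. Levels are CPM, counts per 1e6 reads of the library's total. Genes were chosen by the control levels of embryos 2 and 3 alone: a gene needed a mean of at least 5 CPM in those libraries (C2 and C3) and a ratio of C2 to C3 of at least 3 after 0.5 CPM was added to each. Genes of chromosomes Z, W, 16 and 25, the mitochondrial genome and 3 further IDs were left out beforehand. None of those 3 IDs reached the ratio. Of the 24356 genes counted, 9533 could enter by chromosome and level, and 18 of them met the ratio (0.189%). The C2 to C3 ratio is therefore how the genes were chosen and is given as a description only.

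Each embryo (Gallus gallus, Leghorn White) received 1 mM of a TGFB1 morpholino in one side and 1 mM of the GTBlue-Control morpholino in the opposite one, and was grown to Hamburger-Hamilton stage 9. The dorsal neural fold of each side was taken from the same embryo and sequenced as poly(A) RNA, which gives 3 control libraries (C1 to C3, labelled WT) and 3 TGFB1 morpholino libraries (T1 to T3, labelled TGFB1 knockdown). Equal numbers mark the sides of 1 embryo, and each library is a single fold of a single embryo. The labels give the cell type as neural crest.

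Morpholinos are synthetic antisense oligomers that keep an RNA from being translated or spliced. TGFB1 is a secreted growth factor that signals through SMAD2 and SMAD3. Dorsal neural folds are the raised edges of the closing neural tube, from which neural crest cells leave, and they border the surface ectoderm. A fold dissected at this stage is a mixture of these cells. Both sides of an embryo share its genotype, sex and age, so a difference between embryos can be looked for separately in the libraries of either side. In such bulk samples a lower level may be fewer cells of a type or less RNA per cell, and these cannot be told apart.

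The files give Ensembl gene IDs without names, and 0 of them matched the reference table. No role can therefore be given for any of the 18 genes, the level of TGFB1 and of markers of the labelled cell type was not checked, and most genes are called by their position in galGal6. Totals ran from 5350165 counts in C3, the shallowest library, to 12256492 in C1. Embryos 2 and 3 both had W-linked reads (2346 to 2756 CPM), as female chickens do, while C1 and T1 had 24.0 and 18.3 CPM. T1 stood apart in mitochondrial reads, which took 11.9% of its counts against 3.59% to 7.20% in the other 5 libraries. Of these, 2 mitochondrial genes, from 1297 to 2272 and from 2346 to 3966, took 4.56% of T1. In the other 5 libraries the same 2 genes took 0.148% to 0.255%. What this says about the quality of T1 was not tested. In the comparison of the sides below, embryo 1 is therefore also left out.

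The higher level in embryo 2 was seen again on the TGFB1 morpholino side, which had no part in the choice. All 18 genes were higher in T2 than in T3, by a median of 2.03-fold and between 1.39 and 9.76-fold. Of the 9533 genes that could enter, 50.6% were higher in T2. At least 3-fold higher in T2 were 5 of the 18 genes, against 0.136% of the 9533, and at least 2-fold higher were 11, against 1.03%. The 18 genes lay low among the 9533, with a median level over C2 and C3 of 10.6 CPM against 41.6 CPM. The low C3 that the choice required is part of the former. Among the 4439 genes no higher than the highest of the 18, the shares were 58.3% higher in T2, 0.27% at least 3-fold and 2.1% at least 2-fold. Those 4439 genes had a median level of 16.4 CPM, so they were capped at the level of the 18 but not matched to it. These comparisons set 1 library against 1, so no test over embryos was possible. The exact 95% interval of the T2 to T3 ratio, which covers counting error only, lay above 1 for 18 of 18 genes and for 23.4% of the 9533. The ratio was smaller than the one that chose the genes (median 3.99 for C2 over C3, from 3.05 to 6.89). A cut at 3 favours genes whose C2 to C3 ratio came out large, and T2 over T3 had no such cut. The choice is therefore part of this gap, and nothing is read from it.

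**Figure D1:**
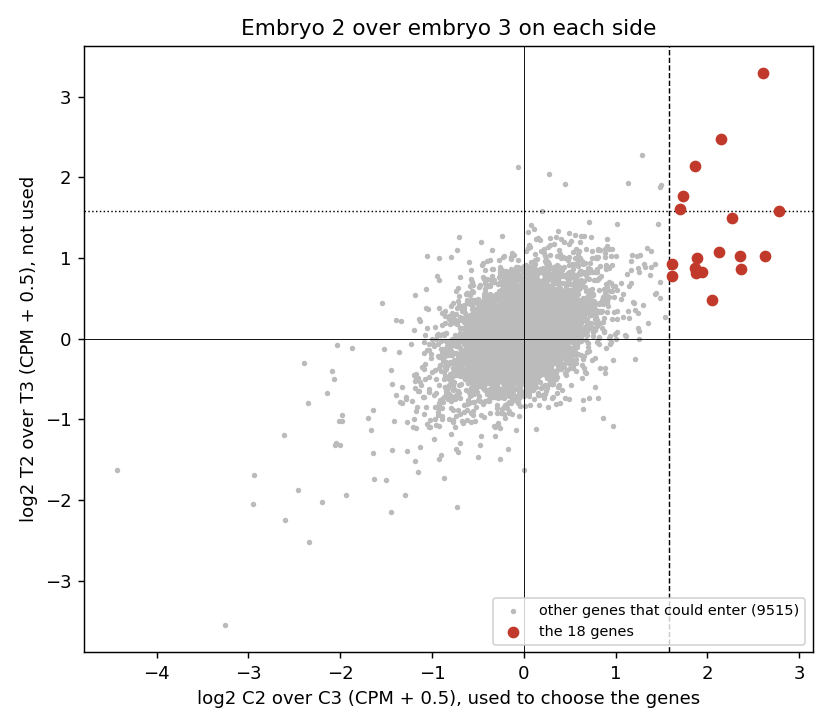
The log2 ratio of embryo 2 to embryo 3 for 9533 genes, from the control side on the x axis (which chose the genes) and from the TGFB1 morpholino side on the y axis (which did not), with 0.5 CPM added. The 18 chosen genes (red) lie to the right of the dashed 3-fold line, all above 0 on the y axis, and 5 of them lie above the dotted 3-fold line.

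Genes at least 3-fold higher in T2 than in T3 numbered 13 among the 9533, and 5 of them were among the 18. That is 27.8% of the chosen genes and 38.5% of the 13. The reverse choice, genes at least 3-fold higher in C3 than in C2, gave 28 genes. All 28 were higher in T3 than in T2, by a median of 2.38-fold, and 10 were at least 3-fold higher, against 0.178% of the 9533. Whether the 2 lists differ in how far the difference returned was not tested.

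The 5 genes with a 3-fold difference on both sides are described first. By that grouping, embryo 3 lay below embryo 2 on each side. The largest T2 to T3 ratio belonged to ENSGALG00000009652.7, a plus-strand gene of 72 exons on chromosome 3, from 20458579 to 20827409. Its levels were 9.71, 11.7 and 1.50 CPM in C1, C2 and C3, and 20.1, 19.3 and 1.52 CPM in T1, T2 and T3. Both libraries of embryo 3 lay below the other 4, with 8 and 12 reads against 99 to 186. Without the added 0.5 CPM, T2 was 12.6-fold above T3 (95% counting interval 7.06 to 24.9). The T2 to T3 ratios printed below with such an interval are also without the added 0.5 CPM. All counts of genes at a fold limit keep it.

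The next largest ratio belonged to a minus-strand gene of 50 exons on chromosome 1, from 15135366 to 15199297. It stood at 4.16, 13.3 and 2.62 CPM in C1 to C3 and at 6.07, 12.1 and 1.78 CPM in T1 to T3. In this gene embryo 1 lay nearer embryo 3 than embryo 2 on the control side, and T2 was 6.81-fold above T3 (interval 3.90 to 12.8). Part of it lies within another gene of the same strand, from 15009296 to 15165846, so its reads may be shared. That neighbour stood at 1307 CPM in C2 and 1306 CPM in C3, a ratio of 1.00, and at 1.22 for T2 over T3.

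A minus-strand gene of 15 exons on chromosome 1, from 171712442 to 171724935, had 23.4, 25.8 and 6.73 CPM in C1 to C3 and 18.4, 20.8 and 4.32 CPM in T1 to T3. Embryos 1 and 2 were close to each other on both sides, and embryo 3 was lower on both, with a T2 to T3 ratio of 4.82 (interval 3.34 to 7.15). It overlaps a weakly read gene on the same strand, with 30 reads in all 6 libraries. The plus-strand gene on chromosome 3 from 35839871 to 35846774 showed 8.49, 8.01 and 2.06 CPM on the control side and 10.8, 7.66 and 1.91 CPM on the other. The minus-strand gene on chromosome 27 from 4030006 to 4034840 showed 51.6, 48.1 and 14.4 CPM, and then 39.1, 34.2 and 10.9 CPM. In both genes the libraries of embryo 3 lay below the other 4. Their T2 to T3 ratios were 4.02 (interval 2.29 to 7.54) and 3.13 (interval 2.46 to 4.01).

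On the control side, embryo 1 lay with embryo 2 for most of the 18 genes. C1 was above C3 in 18 of 18 genes (44.6% of the 9533) and above C2 in 4 (46.8%). On the log2 scale it was nearer C2 than C3 in 16 (56.4%). The median C1 to C3 ratio was 3.50, and the median C2 to C1 ratio 1.15. The choice by C2 and C3 bears on all of these counts, so they are given as levels and nothing is read from them. The exceptions nearer C3 were the gene of 50 exons on chromosome 1 and a minus-strand gene of 4 exons on chromosome 5, from 18658103 to 18665579. The latter had 5.96, 21.0 and 2.62 CPM in C1 to C3.

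On the TGFB1 morpholino side the place of embryo 1 varied from gene to gene. The choice of a low C3 bears on the place of C1. On this side T2 was above T3 in all 18 genes, so T2 was never the lowest. The shares of the 9533 given below carry no such limit. The sides cannot be compared in this, and nothing is read from these counts. T3 was the lowest of the 3 libraries in 10 genes (36.0% of the 9533, and 46.2% of those up to the level of the 18), and T1 was the lowest in the other 8 (37.4% and 24.7%). T2 was the highest in 13 (27.7% and 28.2%). The T1 level took no part in the choice of genes, and its ratio to T3 ran from 0.24 to 10.4. The median of that ratio was 1.21, against 1.15 for the genes up to the level of the 18.

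**Figure D2:**
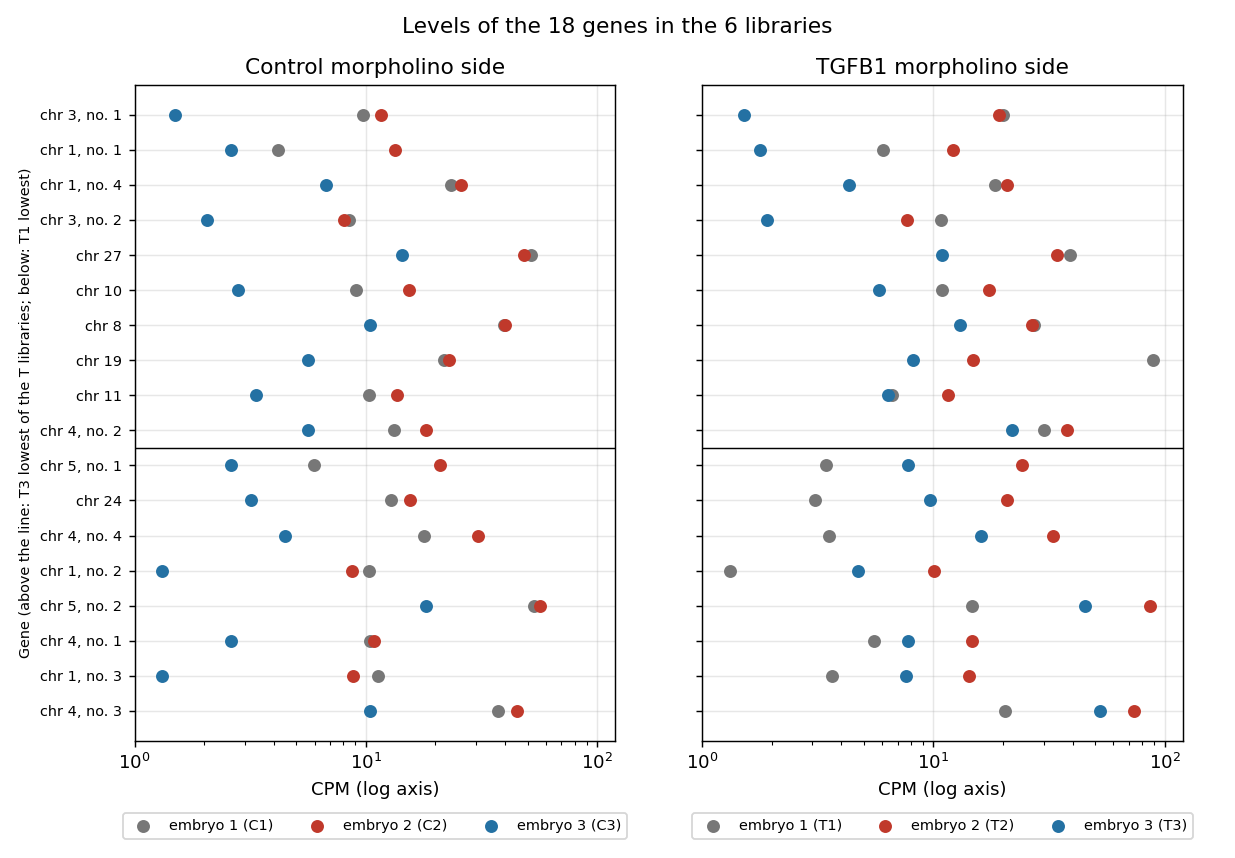
CPM (log axis) of the 18 genes in the control libraries (left) and the TGFB1 morpholino libraries (right), 1 point per library, coloured by embryo and numbered along each chromosome. C3 is the lowest control in every row, which the choice of genes fixes with respect to C2, while on the other side T3 is lowest in the 10 rows above the line and T1 in the 8 rows below it.

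The 8 genes with T1 lowest also had more in T3 than in C3. Among them T1 was 1.65 to 5.91-fold below C1, and T3 was 2.46 to 4.83-fold above C3. The grouping by a low T1 and the choice of a low C3 are part of these differences, so nothing is read from them. The plus-strand gene of 30 exons on chromosome 4, from 65185439 to 65213106, had 17.9, 30.4 and 4.49 CPM in C1 to C3 and 3.53, 33.0 and 16.0 CPM in T1 to T3. C3 and T1 were its low libraries, and C2 and T2 differed little. The minus-strand gene of 4 exons on chromosome 1, from 44018283 to 44031180, had 10.3, 8.72 and 1.31 CPM and then 1.32, 10.04 and 4.70 CPM. Its C3 and T1 levels rest on 7 and 12 reads.

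C3 and T1 were the lowest libraries of a plus-strand gene of 13 exons on chromosome 5, from 50931834 to 50997535, at a depth of 97 to 838 reads. It had 53.6, 56.5 and 18.1 CPM on the control side and 14.7, 86.8 and 45.4 CPM on the TGFB1 morpholino side. The plus-strand gene of 7 exons on chromosome 24, from 3059934 to 3100446, had 12.8, 15.6 and 3.18 CPM, and then 3.09, 20.9 and 9.66 CPM. Its lowest libraries were C3 and T1. The grouping by a low T1 and the choice of a low C3 are part of this in each gene of the group, so nothing is read from it. The minus-strand gene of 42 exons on chromosome 1, from 88760863 to 88804642, had 11.3, 8.84 and 1.31 CPM and then 3.64, 14.3 and 7.62 CPM. An antisense neighbour overlaps its span, and its level is uncertain for that reason.

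The other 3 of these 8 genes differed less between C1 and T1. ENSGALG00000042492.3, a plus-strand gene of 5 exons on chromosome 4 from 57785050 to 57798938, had the smallest T2 to T3 ratio of the 18. Its levels were 37.1, 44.9 and 10.5 CPM in C1 to C3 and 20.4, 73.4 and 52.5 CPM in T1 to T3. In this gene T2 was 1.40-fold above T3 (interval 1.24 to 1.58). The plus-strand gene of 8 exons on chromosome 4 from 1505219 to 1510377 had 10.4, 10.8 and 2.62 CPM, and then 5.52, 14.7 and 7.75 CPM. The gene of 4 exons on chromosome 5 described above had 3.42, 24.2 and 7.75 CPM in T1 to T3, and was thus highest in embryo 2 on both sides.

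Of the other genes with T3 lowest, a minus-strand gene of 12 exons on chromosome 19 had the widest range. It lies from 28899 to 199245 and had 21.8, 23.0 and 5.61 CPM in C1 to C3 and 89.2, 14.8 and 8.13 CPM in T1 to T3. T1 lay 4.02-fold above C1, and 11 other annotated genes overlap its span, so this level is uncertain. An overlapping gene of the opposite strand, from 175286 to 231363, had 0.236 and 15.3 CPM in C2 and C3. In T2 and T3 it had 2.38 and 8.39 CPM. Another of the same strand, from 185814 to 196304, had 9.66 and 4.67 CPM in C2 and C3. Its T2 and T3 levels were 5.69 and 12.6 CPM. Whether reads were shared was not tested. The minus-strand gene of 15 exons on chromosome 8, from 19953424 to 19965159, had 39.7, 40.1 and 10.5 CPM and then 27.4, 26.7 and 13.1 CPM, with embryos 1 and 2 close to each other on both sides. A plus-strand gene of 1 exon on chromosome 10, from 2843523 to 2845327, had 9.06, 15.4 and 2.80 CPM and then 10.9, 17.4 and 5.84 CPM. A minus-strand gene of 10 exons on chromosome 11, from 7727755 to 7733916, had 10.3, 13.7 and 3.36 CPM and then 6.62, 11.6 and 6.35 CPM. T1 and T3 lay close together in the last of these.

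The sides of an embryo were compared to find transcripts whose level differs with the TGFB1 morpholino. Of the 18 genes, 2 were higher on the TGFB1 morpholino side and 0 were lower, at a false discovery rate of 0.05 over 12736 genes (edgeR's quasi-likelihood test with the embryo as a block). Over all genes tested 7.15% were higher and 8.81% lower, and counts this small cannot be set apart from those shares. The 18 genes had a median log2 fold change of 0.085, against 0.0032 over all genes. At an unadjusted p under 0.05 the numbers were 2 higher and 2 lower, against 15.0% and 15.9% of all genes tested. DESeq2 called 1 higher and 0 lower (509 and 878 over all genes). By limma-voom the counts were 2 and 0 (984 and 1171 of the same 12736 genes). Shares over all genes were not computed for DESeq2 and limma-voom, so nothing is read from their counts of the 18. C2 and C3 enter both the choice of genes and this comparison. A low C3 raises the difference within embryo 3, and a high C2 lowers it within embryo 2.

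ENSGALG00000046857.1, a plus-strand gene of 4 exons on chromosome 4 from 43292954 to 43301246, was higher in 3 of 3 embryos. It had 13.3, 18.2 and 5.61 CPM in C1 to C3 and 30.2, 37.7 and 21.9 CPM in T1 to T3, so the sides did not overlap. Its mean went from 12.4 ± 6.33 to 29.9 ± 7.92 CPM (SD, n = 3). By edgeR it rose by 1.33 on the log2 scale, with an SE of 0.20 and an adjusted p of 7.54e-04. Within embryos 1 to 3 it differed by 1.16, 1.03 and 1.87 on the log2 scale. The choice of a low C3 is part of the largest of these, that of embryo 3, and so of this p-value. Without embryo 3 the adjusted p by edgeR was 0.00131. On the TGFB1 morpholino side T2 stood at 1.72-fold of T3 (interval 1.43 to 2.08). Fitted with no replicate block, edgeR gave this gene an adjusted p of 0.0636. The gap between C2 and C3 that chose the gene is part of the spread in that fit, so nothing is read from this value.

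The other gene that rose was ENSGALG00000009652.7, with means of 7.62 ± 5.40 CPM for the controls and 13.6 ± 10.5 CPM for T1 to T3 (SD, n = 3). By edgeR the log2 fold change came to 0.78, with an SE of 0.24 and an adjusted p of 0.0392. Within the embryos it differed by 1.01, 0.70 and 0.02 on the log2 scale, and embryo 3, with 8 and 12 reads, showed almost no difference. This call was lost by edgeR without embryo 1 (adjusted p = 0.145), without embryo 2 (0.264) and with no replicate block (0.576), and by DESeq2 (0.170). The gap between C2 and C3 that chose the gene is part of the spread in the fit with no block. Nothing is read from the p-value of that fit.

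The 16 genes not called had log2 fold changes from -0.42 to 0.74 and adjusted p-values of 0.0649 to 0.965 by edgeR. The lowest of these p-values belonged to the gene on chromosome 27, which was lower in 3 of 3 embryos (log2 fold change -0.42, SE 0.15). Standard errors over the 18 genes ran from 0.15 to 0.57, the largest being that of the gene on chromosome 1 from 44018283. For several genes the embryos differed in direction.

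**Figure D3:**
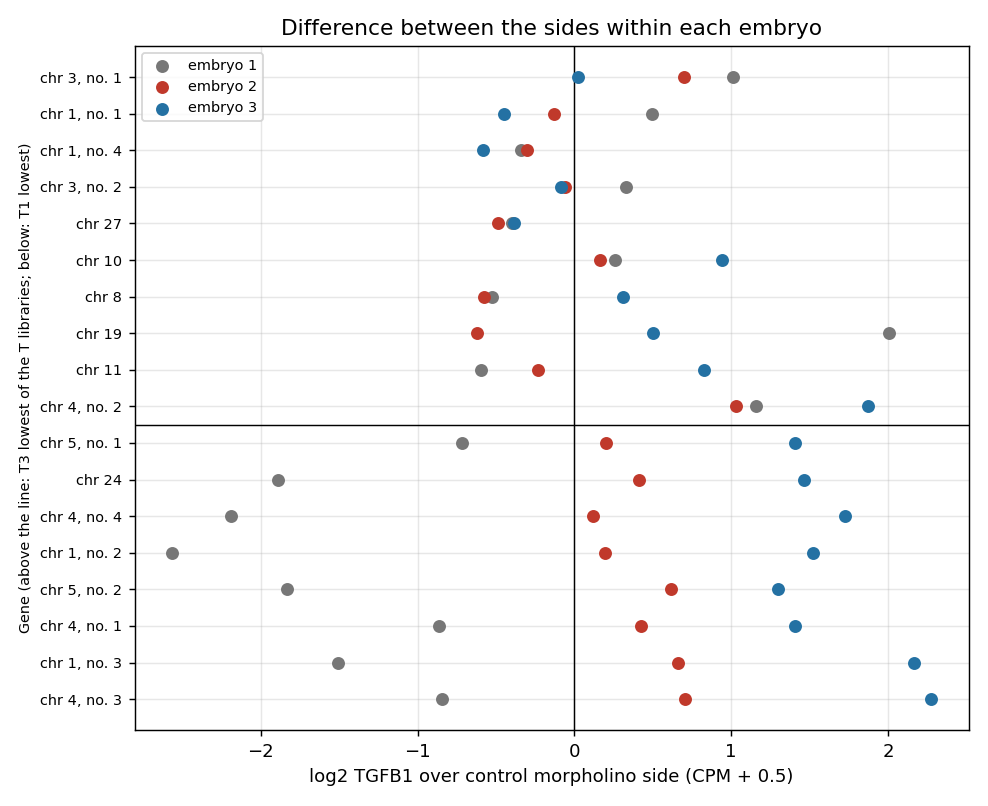
The log2 ratio of the TGFB1 to the control morpholino side within each embryo (CPM + 0.5), 1 point per embryo, for the 18 genes in the same order as in the plot of levels. Below the line embryo 1 lies between -2.56 and -0.72 and embryo 3 between 1.30 and 2.27, with embryo 2 between 0.12 and 0.70. Those rows were grouped by T1 being the lowest TGFB1 morpholino library. All rows were chosen by a high C2 and a low C3, so grouping and choice are part of these ranges.

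The choice of genes did not use embryo 1, and T1 was lower than C1 in 12 of the 18 genes (52.0% of the 9533) and higher in 6 (48.0%). The median log2 difference was -0.56, against -0.02 over the 9533 genes and 0.07 over those up to the level of the 18. T1 was at least 2-fold below C1 in 5 genes (4.73% of the 9533, and 6.4% of those up to the level of the 18) and at least 2-fold above it in 3 (3.18% and 5.9%). Within embryo 2 the median log2 difference was 0.18, with 0 genes at least 2-fold lower (2.76%) and 1 at least 2-fold higher (0.808%). The choice of a high C2 is part of these values. Within embryo 3 the median was 1.12, with 9 genes at least 2-fold higher (0.955%) and 0 at least 2-fold lower (4.51%). There the choice of a low C3 is part of the values.

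T1 was below C1 while T3 was above C3 in 10 genes, against 16.3% of the 9533. The low C3 that the choice fixed is part of this count too, and nothing is read from it. Whether the embryos differ in their response was not tested, as each embryo has 1 library per side. The excess of mitochondrial reads in T1 and the low depth of C3 lie in the same libraries as these low values, and their part in them was not tested. Without embryo 1 edgeR called 7 of the 18 genes higher and 0 lower (10 and 1 at an unadjusted p under 0.05), against 7.42% and 10.4% of all genes in that fit, and the median log2 fold change was 0.60. That fit holds only embryos 2 and 3, whose control libraries chose the genes, so nothing is read from it. Without embryo 3 edgeR called 2 of the 18 higher and 1 lower (6.18% and 7.59% of all genes), and their median was -0.28. The high C2 of the choice is in that fit and lowers the difference within embryo 2, so nothing is read from these values either.

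The 18 genes were spread over 10 chromosomes, with 4 each on chromosomes 1 and 4, 2 each on chromosomes 3 and 5, and 1 each on 6 others. The closest pair on a chromosome lay 7.40 Mb apart between starts. They were divided evenly between the strands, 9 on each. Their exon number (median 9, from 1 to 72), exon length (median 2609 bases) and span (median 12.7 kb) were near those of the 9533 genes (medians 10, 2567 bases and 14.8 kb). In 4 of them the span overlapped another annotated gene, and 14 overlapped none. All 14 were higher in T2 than in T3, 3 of them at least 3-fold. Of the 9533 genes, overlapping or not, 50.6% were higher in T2 and 0.136% at least 3-fold.

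Most neighbouring genes did not share the difference. Neighbours were the genes next before and after in order of start, among those that could enter, and some overlap one of the 18. Of these 35 neighbours, 0 were themselves among the 18. Their median ratios were 1.03 for C2 over C3 and 0.99 for T2 over T3. At least 1.5-fold higher in T2 than in T3 were 3 of the 35, against 6.15% of the 9533 genes. At least 1.5-fold higher in embryo 2 on both sides was 1 of them, against 1.48%. It is a gene on chromosome 24, from 3102875 to 3110564, next to the one described above, at 2.40-fold on the control side and 2.06-fold on the other.

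Just inside the 3-fold limit lay ENSGALG00000046857.1 and the gene of 13 exons on chromosome 5, with C2 to C3 ratios of 3.05 and 3.06 and T2 to T3 ratios of 1.71 and 1.90. Just outside it lay 2 genes of chromosome 4, from 55063378 to 55126784 and from 27856464 to 27867493. Their C2 to C3 ratios were 2.91 and 2.83, and their T2 to T3 ratios 1.21 and 3.74. The last of these would thus meet the ratio on the TGFB1 morpholino side. Whether its level there would also suffice was not checked.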

How the data were processed

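The authors deposited whole-number read counts per gene for 6 libraries, with the exons of each gene. The submitters' processing notes name cutadapt, HISAT2, featureCounts and the build galGal6. Versions, the gene annotation and whether counting used strand are not given in the sources here, so reads of overlapping genes may be shared or assigned to the wrong one. Libraries were made with a strand-specific NEBNext kit, per the labels' protocols.

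CPM use unscaled column totals. The counts were tested in R 4.3.3 with edgeR 4.0.16 (filterByExpr, TMM, quasi-likelihood F test, Benjamini-Hochberg over 12736 genes), with limma 3.58.1 and DESeq2 1.42.0 as alternatives. Standard errors are the log2 fold change over the root of F. The pair number is a block, since both sides come from the same embryo, per the labels' protocols. Libraries with the same number also deviated together from their group means, with correlations over genes of 0.49, 0.52 and 0.36. P-values of the main fit measure the spread of the difference between the sides over 3 embryos, with variance estimates that draw on all genes. Fits without an embryo rest on fewer, and the fit with no replicate block rests on the spread between the libraries of a side. Exact (Clopper-Pearson) 95% intervals of a ratio of 2 libraries cover counting error only.

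The genes, lists and thresholds were chosen with earlier results of these data known. Gene IDs were printed by a rule: the genes with the largest and the smallest T2 to T3 ratio, and the gene of largest fold change called in each direction between the sides (0 were called lower). The lists of cell type markers fixed by symbol could not be matched to the IDs and were not used here. No sequence was read.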

Additional observations from a re-analysis of the deposited data

How the results depend on the processing

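With no replicate block edgeR called 270 genes higher and 427 lower over all genes, and 0 of the 18 genes higher. At an unadjusted p under 0.05 that fit had 1 of the 18 higher, while 2826 of all genes passed in either direction. The choice of genes by a gap between C2 and C3 adds to the spread on which the fit with no block rests. DESeq2 called 509 genes higher and 1 of the 18. Leaving out each embryo in turn gave 450 to 940 genes higher and 670 to 1313 lower, and 2 to 7 of the 18 higher and 0 to 1 lower. With no filter on low counts 4 of the 18 were higher and 1 lower, and 1167 and 1513 over all genes. Shares over all genes were not computed for the fits with no replicate block, with no filter and without embryo 2. They were not computed for DESeq2 either, so nothing is read from the counts of the 18 in these fits. Other choices of genes moved the counts. Their side counts come from the main edgeR fit, where 7.15% of all genes were higher and 8.81% lower. With 0.1 CPM added (21 genes) 4 were higher on the TGFB1 morpholino side. With 2 CPM added (13 genes) 1 was higher, and 3 were at least 3-fold higher in T2 than T3, against 0.0839% of 9533 genes. A 2-fold limit (70 genes) gave 8 higher and 2 lower, with 68 above T3 in T2 and 9 at least 3-fold (50.6% and 0.136% of 9533 genes). A 4-fold limit and a mean of at least 10 CPM (9 genes each) both gave 1 higher, with 9 of 9 above T3 and 2 at least 3-fold. The shares were 50.6% and 0.136% of 9533 genes for the former, and 48.9% and 0.0479% of 8347 for the latter. A mean of at least 1 CPM (66 genes) gave 8 higher, with 63 above T3 and 15 at least 3-fold, where 52.9% and 0.616% of the 11855 genes at that level were so. Genes overlapping no other (14, added after the data were seen) included 3 at least 3-fold higher, against 0.136% of 9533 genes, overlapping or not. Totals without mitochondrial genes, also added then, gave 18 genes, 18 of them above T3 and 6 at least 3-fold (55.2% and 0.156% of 9609 genes). The cause of these changes was not tested beyond the number of genes that each choice admits. These genes had 7 to 97 reads in C3, which limits the precision of every ratio to that library.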
